A study of Mus musculus with 24 samples.

Results

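Expression of 10 genes that encode oxylipin-forming and oxylipin-degrading enzymes was followed in bone marrow-derived macrophages (BMDMs) of WT and AhR-KO mice, with and without LPS. The genes are the lipoxygenases Alox12 and Alox15, the prostacyclin synthase Ptgis, the epoxide hydrolases Ephx1 and Ephx2, the cytochrome P450 enzymes Cyp4f18, Cyp4f16 and Cyp4a12b, and the inactivating enzymes Ptgr1 and Hpgd. They were chosen by symbol and matched to the Ensembl identifiers of the count table, where all 10 were found among 55421 genes. RNA sequencing of polyA RNA had been done on 24 libraries in 4 groups of 6, and the methods give 6 animals per group from 1 experiment, aged 7 to 14 weeks.

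The 4 groups were unstimulated WT, unstimulated AhR-KO, LPS-stimulated WT and LPS-stimulated AhR-KO BMDMs. WT mice were C57/B6/J, and AhR-KO mice were B6.129-Ahr tm1Bra/J, which lack functional AhR in all cells and not only in macrophages. Bone marrow of both genotypes was grown with GM-CSF at 10 ng/ml and TGF-β at 2 ng/ml, a culture meant to bring macrophages close to those of the alveoli. LPS was added at 97 EU/ml on day 6 for 24 h, and the treatment protocol, given alike for every library, ends with Ca2+ ionophore A23187 at 5 µM for 10 min. Libraries are called replicates by their library numbers, 17 to 40. These numbers form 3 runs of 8 with 2 libraries of each group in each run, and nothing in the labels calls the runs batches or pairs the cultures.

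Oxylipins are signalling lipids made by oxygenation of arachidonic acid and other polyunsaturated fatty acids. Lipoxygenases give hydroxy fatty acids and leukotrienes, cyclooxygenases give the precursor of all prostanoids, which Ptgis turns into prostacyclin, and cytochrome P450 enzymes give epoxides and ω-hydroxylated products. Epoxide hydrolases, P450 ω-hydroxylases, Ptgr1 and Hpgd remove or convert these mediators, so that the level of a mediator depends on both arms. AhR is a ligand-activated transcription factor with several P450 genes among its best known targets.

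Each library held between 45106052 and 76992663 counted fragments. Levels are given as CPM, counts per 1000000 of a library scaled by its TMM factor. Ahr itself was counted in both genotypes, at 28.3 ± 12.2 CPM in WT and 7.41 ± 2.39 CPM in AhR-KO without stimulation and at 16.8 ± 7.63 and 43.1 ± 16.1 CPM after LPS (SD, n = 6 each), and counts over the whole gene do not show whether the deleted part was transcribed. The 8 macrophage markers examined, such as Adgre1, Csf1r and Lyz2, had a mean of at least 1 CPM in every group, as had 8 of 8 alveolar macrophage markers without stimulation and 7 of 8 after LPS. The summed level of the 8 macrophage markers, most of it Lyz2, was 14981 to 29799 CPM in WT without stimulation. It was 20617 to 34234 CPM in AhR-KO. After LPS these sums were 12071 to 28359 and 16909 to 19196 CPM. Single macrophage markers moved with genotype in both directions. Itgam had means of 61.2 CPM in WT and 25.8 CPM in AhR-KO without stimulation, and Fcgr1 482 and 1139 CPM after LPS. Of the alveolar macrophage markers, Siglecf (1.57, adjusted p = 0.00282) and Ear1 (1.48, adjusted p = 5.2e-04) were called higher in AhR-KO without stimulation and Ear1 (1.72, adjusted p = 6.1e-05) and Car4 (1.004, adjusted p = 9.2e-05) after LPS, by the log2 fold changes of the test described below, and none lower. Markers of other cells also moved with genotype. The summed level of 9 neutrophil genes was 1690 to 12712 CPM in WT and 259 to 809 CPM in AhR-KO libraries without stimulation, and 728 to 8434 and 141 to 1020 CPM after LPS. That of 8 dendritic and Langerhans cell genes was 74.5 to 211 and 10.1 to 19.1 CPM without stimulation, and 580 to 2452 and 100 to 894 CPM after LPS. Without stimulation most of the WT sum was Epcam, Ccr7 and Cd207. Most of the AhR-KO sum was then Clec9a and Zbtb46 (means of 6.42 and 3.44 CPM). After LPS most of the sum was Ccr7 in both genotypes. Of the 7 tested genes of the list 5 were called lower in AhR-KO in each state, but Clec9a was called higher without stimulation (1.34, adjusted p = 0.00461). The sum of 8 mast cell and basophil genes was 4.58 to 18.99 CPM in WT and 1.38 to 3.61 CPM in AhR-KO without stimulation, and 7.20 to 31.8 and 2.65 to 7.88 CPM after LPS, and Gata2, Cpa3 and Mcpt8 were called lower in both states. The part of these cells in the results below was not tested, and in bulk RNA fewer cells of a type and less RNA per cell cannot be told apart.

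Changes were tested over all 16593 genes with enough counts with edgeR's quasi-likelihood test, and all 10 genes of this set were among them. A gene was called when its adjusted p was at most 0.05 and its log2 fold change at least 1 in either direction, and for the interaction of genotype and LPS on the adjusted p alone. Without stimulation, Cyp4a12b and Ephx1 were called higher and Ptgis lower in AhR-KO, beside 0.916% of all tested genes called higher and 3.57% called lower. After LPS, Alox12 and Cyp4f18 were called higher and Ephx2 lower in AhR-KO, beside 2.17% and 6.19% of all tested genes. No gene of the set was called in both states.

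LPS itself changed more of them. In WT, Alox12 was called higher and Ephx1, Hpgd and Ptgis lower, beside 13.2% of all tested genes called higher and 11.8% lower. In AhR-KO, Alox12 and Cyp4f18 were called higher and Ephx1, Ephx2, Hpgd and Cyp4a12b lower, beside 15.1% and 15.7% of all tested genes. The effect of LPS differed between the genotypes for Ptgis, where it was more positive in AhR-KO, and for Ephx1, Ephx2 and Cyp4a12b, where it was more negative, beside 1.95% and 2.34% of all tested genes. The median log2 fold change of the 10 genes was 0.30 without stimulation, against −0.01 over all tested genes, and 0.03 after LPS, against −0.05. For LPS in WT and in AhR-KO it was −0.80 and −0.48, against 0.03 and −0.03 over all tested genes. The 2 genotype comparisons have no library in common, but each shares its libraries with both LPS comparisons.

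**Figure D1:**
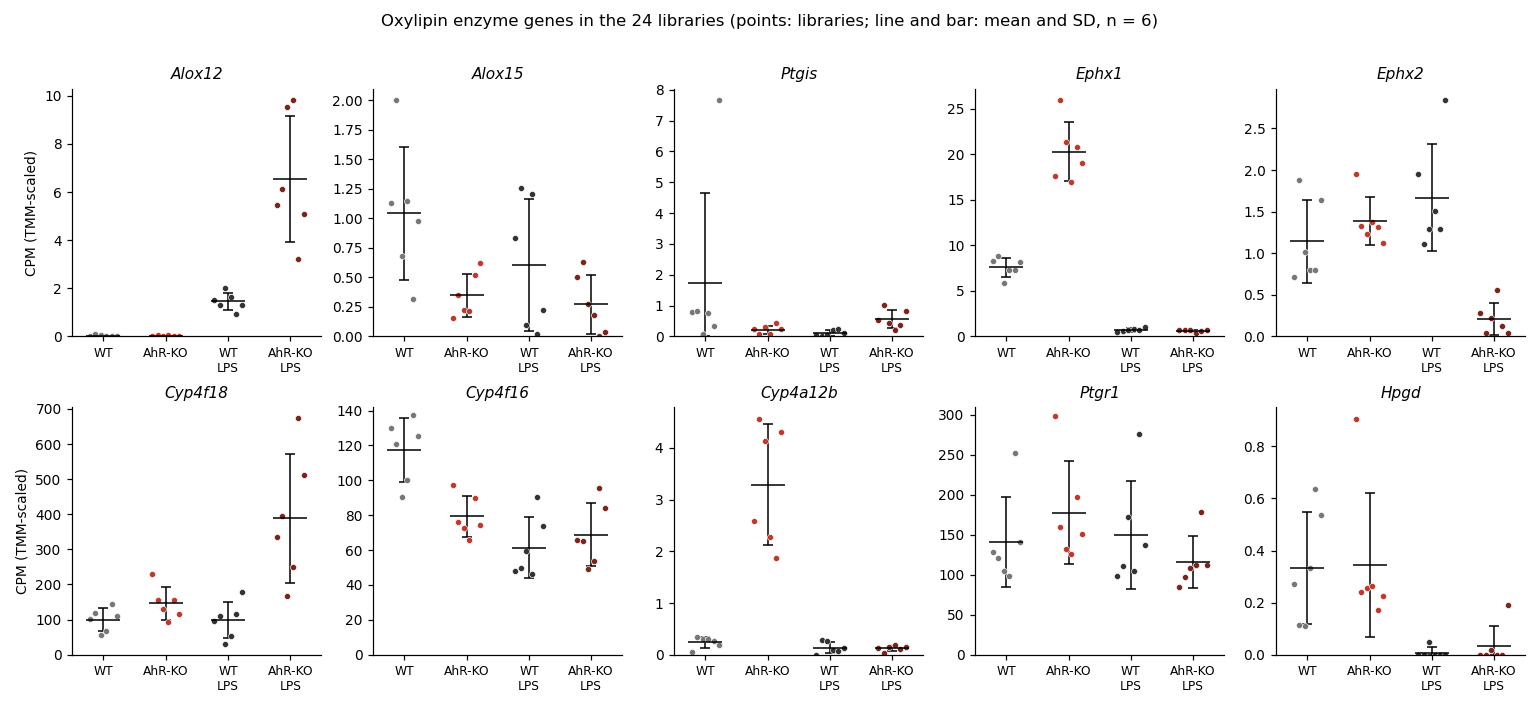
CPM of the 10 genes in each library, 1 panel per gene with its own linear axis from 0, in the 4 groups; points are libraries, and the line and bar are the mean and SD of 6 libraries (the lower bar ends at 0 where the SD exceeds the mean). Ephx1 in unstimulated AhR-KO libraries (16.95 to 25.9 CPM) and Alox12 in LPS-stimulated AhR-KO libraries (3.23 to 9.81 CPM) lie above every WT library in the same state, and Ptgis in unstimulated WT has 1 library at 7.65 CPM.

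The genes differed widely in level. Fragments over more than 1 gene had not been counted, which touches Ephx1 and Hpgd, since they overlap Gm36961 and Gm45540 on the same strand. Per kilobase of merged exons, and each in the group where it was highest, Cyp4f18 had 210 ± 98.8 CPM per kb in AhR-KO after LPS, Ptgr1 77.3 ± 28.1 in unstimulated AhR-KO and Cyp4f16 38.3 ± 5.91 in unstimulated WT (SD, n = 6 each). The libraries of Cyp4f18 and Ptgr1 overlapped on this scale, whereas those of Ptgr1 lay above those of Cyp4f16. Ephx1 followed with 10.4 ± 1.67 CPM per kb in unstimulated AhR-KO, apart from its neighbours on both sides. The other 6 genes had means from 1.60 CPM per kb for Alox12 to 0.205 CPM per kb for Hpgd, and each of them overlapped with the next in the order Alox12, Cyp4a12b, Ptgis, Ephx2, Alox15 and Hpgd.

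Among the lipoxygenases, Alox12 rose with LPS in both genotypes and was then higher in AhR-KO than in WT. Alox12, the platelet-type lipoxygenase (ENSMUSG00000000320, mm10 chromosome 11, 70241457 to 70255353, minus strand), had counts in only 2 of 6 unstimulated WT libraries and 3 of 6 unstimulated AhR-KO libraries, 9 and 11 counts in all. After LPS it had a lowest, median and highest value of 0.936, 1.41 and 2.02 CPM in WT. In AhR-KO these were 3.23, 5.80 and 9.81 CPM, so that all 6 AhR-KO libraries were above all 6 WT libraries. The ratio of the means was 4.50, with a log2 fold change of 2.17 (SE 0.56, adjusted p = 0.0107), and the difference was positive within each of the 3 runs. LPS raised the gene 71.7-fold in WT (log2 fold change 5.95, SE 0.74, adjusted p = 6.9e-07) and 246-fold in AhR-KO (7.78, SE 0.77, adjusted p = 1.3e-08), by the ratios of the means. The low unstimulated counts limit these folds, and without WT replicate 18, which held 6 of the 9 counts, the change in WT was 7.09 on the log2 scale. The interaction of genotype and LPS was 1.83 (SE 1.08, adjusted p = 0.551), so that a different LPS effect between the genotypes was not shown for Alox12. Markers of megakaryocytes and platelets, cells known for Alox12, moved with LPS and genotype in both directions. The summed level of 8 such genes, most of it Pf4, ranged from 24.98 to 80.0 CPM in unstimulated WT, 92.2 to 184 CPM in unstimulated AhR-KO, 129 to 279 CPM in WT after LPS and 86.5 to 165 CPM in AhR-KO after LPS. Of these genes 4 were tested. Gp6, a platelet collagen receptor, rose from a mean of 0.0251 to 19.5 CPM in WT (log2 fold change 9.41, SE 0.95, adjusted p = 2.9e-08) and from 0.0472 to 9.94 CPM in AhR-KO (7.73, SE 0.88, adjusted p = 1.3e-07). Pf4, platelet factor 4, was called higher with LPS in WT (1.65, adjusted p = 3.2e-05) and not in AhR-KO (−0.25, adjusted p = 0.482). Ppbp, a platelet chemokine, was called lower with LPS in AhR-KO (−3.03, adjusted p = 3.2e-05) and not in WT (0.33, adjusted p = 0.641), and Itga2b, a platelet integrin, in neither (0.35 and −0.30). After LPS, where Alox12 was higher in AhR-KO, Itga2b was called lower there (−2.65, adjusted p = 0.0223), and the differences were −0.97 for Gp6, −0.51 for Pf4 and −0.55 for Ppbp (adjusted p = 0.418, 0.267 and 0.628). Without stimulation Pf4 (1.39, adjusted p = 0.00145) and Ppbp (2.81, adjusted p = 6.3e-04) were called higher and Itga2b lower (−3.30, adjusted p = 0.00857) in AhR-KO. Gp1ba and Gp1bb had no count in any library. The part of such cells in the Alox12 values was not tested.

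Alox15, the second arachidonate lipoxygenase of this set and one that eosinophils and resident macrophages are known for (ENSMUSG00000018924, chromosome 11, 70344152 to 70352031, minus strand), passed no test. Its lowest, median and highest values without stimulation were 0.318, 1.06 and 2.00 CPM in WT and 0.159, 0.285 and 0.621 CPM in AhR-KO. Of the 6 AhR-KO libraries 3 lay below all WT libraries, and the others overlapped with them. The log2 fold change was −1.58 (SE 0.76, adjusted p = 0.348), and within the 3 runs the difference in mean log2(CPM + 0.5) was between −1.43 and −0.04. After LPS the median was 0.527 CPM in WT and 0.228 CPM in AhR-KO, with a log2 fold change of −1.16 (SE 0.77, adjusted p = 0.435) and wide overlap. The summed level of 5 eosinophil genes, most of it Prg2, ranged from 25.8 to 185 CPM in WT and from 22.7 to 121 CPM in AhR-KO without stimulation, and its part in the Alox15 values was not tested.

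Ptgis, which turns prostaglandin H2 into prostacyclin (ENSMUSG00000017969, chromosome 2, 167191805 to 167240604, minus strand), was low and turned on 1 library in the unstimulated comparison. WT replicate 34 had 7.65 CPM without stimulation, from 485 counts, and the 5 other unstimulated WT libraries had 0.0732 to 0.836 CPM. Unstimulated AhR-KO libraries had 0.0662, 0.227 and 0.422 CPM as lowest, median and highest value. The log2 fold change was −2.97 (SE 0.85, adjusted p = 0.0367), and it was −1.34 (adjusted p = 0.445) without replicate 34. The call was also lost, at an almost unchanged fold change, without AhR-KO replicate 19, 20, 27, 28 or 36 (adjusted p = 0.0644, 0.0915, 0.0606, 0.0878 and 0.0716). Replicate 34 was also 1 of 2 libraries with under 1 CPM of 4 Y-linked genes in sum (the other was replicate 38 of the LPS-stimulated WT group), and its summed level of 8 stromal and endothelial genes, 17.9 CPM, of which 16.6 CPM was Pecam1, was within the 5.40 to 38.9 CPM of its group. In unstimulated AhR-KO libraries this sum was 1.43 to 12.5 CPM. The mean of Pecam1 was 16.3 CPM in WT and 3.59 CPM in AhR-KO, whereas genes such as Col1a2 went the other way (0.778 and 2.22 CPM). The part of such cells in the unstimulated Ptgis values was not tested.

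After LPS the order of the genotypes was the opposite. WT libraries had 0, 0.0793 and 0.240 CPM of Ptgis as lowest, median and highest value, and AhR-KO libraries 0.216, 0.479 and 1.03 CPM. Of the 6 AhR-KO libraries 5 were above all WT libraries, and the difference was positive within each run, but it did not pass the test (log2 fold change 2.40, SE 0.88, adjusted p = 0.0808). It passed with the run as a factor (2.53, adjusted p = 0.0363), with DESeq2 (2.44, adjusted p = 0.0207) and without replicate 34 (2.39, adjusted p = 0.0269), and further with the slope on gene length, with only the groups compared and without replicates 34 and 38 (adjusted p = 0.0396, 0.0465 and 0.0415). With LPS, Ptgis fell in WT (log2 fold change −4.02, SE 0.92, adjusted p = 0.00113), also without replicate 34 (−2.39, adjusted p = 0.0121). In AhR-KO the change was 1.35 (SE 0.83, adjusted p = 0.199), and it was called with only the groups compared (1.34, adjusted p = 0.0419). The summed stromal and endothelial genes ranged from 7.14 to 47.1 CPM in WT and from 15.9 to 61.4 CPM in AhR-KO after LPS. Dcn, a fibroblast proteoglycan, was the gene of that list called between the genotypes after LPS, with a mean of 0.822 CPM in WT and 11.9 CPM in AhR-KO (3.84, SE 0.54, adjusted p = 2.1e-05). The part of these cells in the Ptgis values was not tested. The opposite directions of Ptgis with LPS differed in the test of the interaction (5.36, SE 1.22, adjusted p = 0.0112), and did so without replicate 34 as well (3.73, adjusted p = 0.0332). With limma-voom the interaction was not called (4.69, adjusted p = 0.0566).

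Both epoxide hydrolases were called, in different states. Ephx1, the microsomal hydrolase known for detoxifying xenobiotic epoxides and also able to open fatty acid epoxides (ENSMUSG00000038776, chromosome 1, 180976210 to 181020904, minus strand), was higher in unstimulated AhR-KO BMDMs. The lowest, median and highest values were 5.86, 7.72 and 8.81 CPM in WT and 16.95, 19.97 and 25.9 CPM in AhR-KO. The 2 groups did not overlap, and the means differed 2.67-fold (log2 fold change 1.42, SE 0.19, adjusted p = 2.5e-05), with a within-run difference of 1.28 to 1.47 in mean log2(CPM + 0.5). After LPS the gene was low in every library of both genotypes, with 0.471 to 1.08 CPM in WT and 0.343 to 0.707 CPM in AhR-KO. The genotype difference was then −0.24 (SE 0.20, adjusted p = 0.594). The fall from the unstimulated mean was 10.7-fold in WT (log2 fold change −3.42, SE 0.21, adjusted p = 1.2e-11) and 33.8-fold in AhR-KO (−5.07, SE 0.23, adjusted p = 2.5e-14), and the interaction was −1.65 (SE 0.28, adjusted p = 8.2e-04).

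Ephx2, the soluble hydrolase that converts arachidonic and linoleic acid epoxides to diols (ENSMUSG00000022040, chromosome 14, 66084374 to 66124500, minus strand), showed the reverse. Without stimulation it had 0.715, 0.906 and 1.88 CPM in WT and 1.12, 1.32 and 1.95 CPM in AhR-KO as lowest, median and highest values, which overlapped (log2 fold change 0.28, SE 0.43, adjusted p = 1). After LPS it had 1.12, 1.40 and 2.84 CPM in WT and 0.0382, 0.173 and 0.559 CPM in AhR-KO. All AhR-KO libraries were then below all WT libraries, and the mean was 7.90-fold lower (log2 fold change −2.96, SE 0.48, adjusted p = 1.2e-04). LPS lowered Ephx2 in AhR-KO (−2.69, SE 0.47, adjusted p = 5.1e-05), whereas its change in WT was 0.54 (SE 0.43, adjusted p = 0.354), and the interaction was −3.23 (SE 0.64, adjusted p = 0.00337). The AhR-KO values after LPS rested on 65 counts in all, 31 of them in replicate 32, without which the genotype difference was −3.55 and the interaction −3.83.

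**Figure D2:**
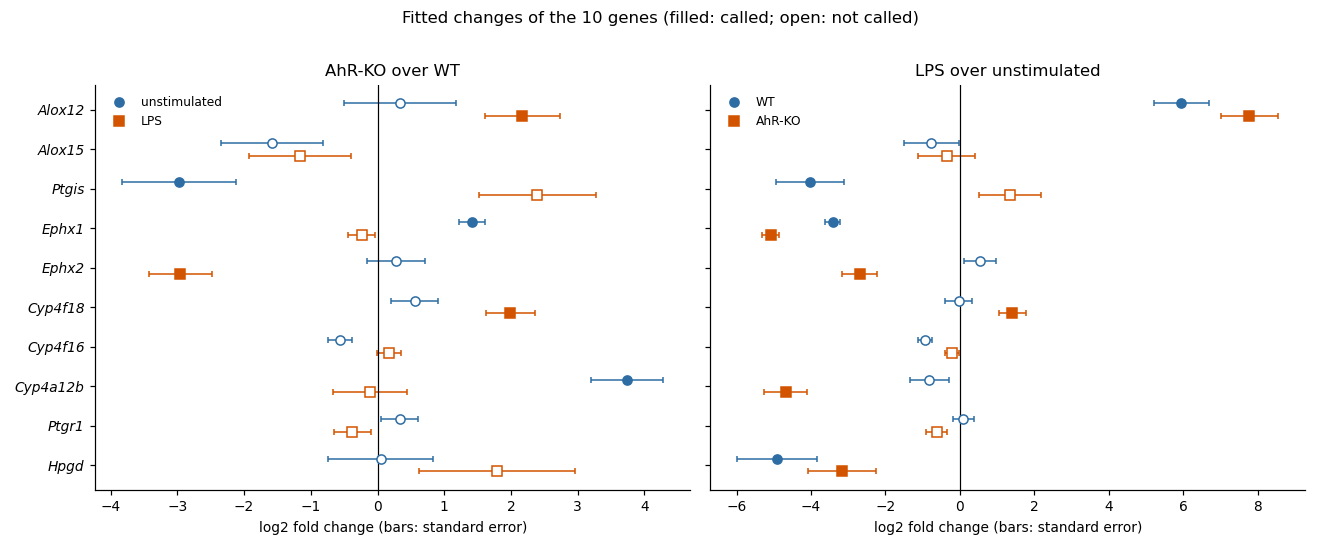
Log2 fold changes of the 10 genes from the fit of all libraries, AhR-KO over WT on the left (circles unstimulated, squares after LPS) and LPS over unstimulated on the right (circles WT, squares AhR-KO); bars are standard errors and filled symbols are called genes. Ephx1 is called between the genotypes without stimulation (1.42) and not after LPS (−0.24), and Ephx2 after LPS (−2.96) and not without stimulation (0.28).

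Of the P450 enzymes, Cyp4f18 rose with LPS in AhR-KO and there had the highest mean of the set per kilobase, whereas in WT Ptgr1 had the higher mean per kilobase both without stimulation (61.4 against 53.9 CPM per kb) and after LPS (65.3 against 52.7 CPM per kb). Cyp4f18 encodes an enzyme that hydroxylates leukotriene B4 in mouse neutrophils (ENSMUSG00000003484, chromosome 8, 71988482 to 72009626, minus strand). WT libraries had 56.6, 106 and 145 CPM as lowest, median and highest values without stimulation and 31.8, 103 and 178 CPM after LPS. AhR-KO libraries had 93.0, 143 and 230 CPM without stimulation and 166, 366 and 674 CPM after LPS. The groups overlapped without stimulation (log2 fold change 0.55, SE 0.36, adjusted p = 0.629). After LPS 5 of 6 AhR-KO libraries were above all WT libraries, and the mean was 3.98-fold higher (log2 fold change 1.99, SE 0.37, adjusted p = 5.0e-04), with a within-run difference of 1.83 to 2.28. After LPS, 6 of 8 tested neutrophil genes were called lower in AhR-KO (Cxcr2, Elane, Ltf, Ngp, S100a8 and S100a9). The neutrophil sums of 5 AhR-KO libraries, 141 to 384 CPM, were below all WT libraries, and that of replicate 39, the library with the most Cyp4f18 (674 CPM), was 1020 CPM. In WT, replicate 29 had the lowest Cyp4f18 level (31.8 CPM) at a sum of 3616 CPM, and replicate 37 had 117 CPM at the highest sum, 8434 CPM. The part of neutrophils in the Cyp4f18 values was not tested.

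LPS changed Cyp4f18 by −0.03 in WT (SE 0.35, adjusted p = 0.957) and by 1.40 in AhR-KO (SE 0.36, adjusted p = 0.00258). The change in AhR-KO was 0.93 and no longer called when libraries were scaled by their totals, which moved the median change of all tested genes by −0.48. The interaction, 1.44 (SE 0.50, adjusted p = 0.131), did not pass the test, but it passed with the run as a factor (1.40, adjusted p = 0.00587) and with each library's slope on gene length as a covariate (1.31, adjusted p = 0.00104).

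Cyp4f16, a further member of the Cyp4f subfamily (ENSMUSG00000048440, chromosome 17, 32536558 to 32551798, plus strand), was also abundant and was called in no comparison. Unstimulated WT libraries had 90.7, 123 and 137 CPM and AhR-KO libraries 66.0, 75.4 and 97.5 CPM as lowest, median and highest values. Of the 6 AhR-KO libraries 5 were below all WT libraries, but the difference did not pass the test (log2 fold change −0.56, SE 0.18, adjusted p = 0.0733). After LPS the medians were 54.4 CPM in WT and 65.3 CPM in AhR-KO, with a difference of 0.17 (SE 0.18, adjusted p = 0.722). LPS lowered it in WT without overlap of the libraries (−0.94, SE 0.18, adjusted p = 2.3e-04), just short of the fold change required. It was called with libraries scaled by their totals (−1.30, adjusted p = 4.6e-08) and without WT replicate 25 (−1.004, unstimulated) or 37 (−1.07, after LPS). The interaction of 0.73 (SE 0.26, adjusted p = 0.132) did not pass the test, but it passed with the run as a factor (0.71, adjusted p = 0.0135), with the slope on gene length (0.66, adjusted p = 9.4e-04) and without replicate 37 (0.87, adjusted p = 0.0415).

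Cyp4a12b had the largest genotype difference of the 10 genes without stimulation. It belongs to the fatty acid ω-hydroxylases, known from the male mouse kidney and liver (ENSMUSG00000078597, chromosome 4, 115411624 to 115439034, plus strand). Unstimulated WT libraries had 0.0539, 0.289 and 0.340 CPM and unstimulated AhR-KO libraries 1.87, 3.36 and 4.57 CPM as lowest, median and highest values, without overlap. The mean was 13.5-fold higher in AhR-KO (log2 fold change 3.74, SE 0.54, adjusted p = 5.1e-05), and without replicates 34 and 38, which lacked Y-linked counts, the log2 fold change was 3.68 (adjusted p = 3.5e-04). After LPS no library of either genotype exceeded 0.275 CPM, and the genotype difference was −0.12 (SE 0.55, adjusted p = 0.97). LPS lowered the gene in AhR-KO (−4.68, SE 0.58, adjusted p = 4.0e-07), while its change in WT was −0.82 (SE 0.53, adjusted p = 0.241). The interaction was −3.86 (SE 0.76, adjusted p = 0.00341).

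The counts of Cyp4a12b cannot be parted with certainty from those of Cyp4a12a, its neighbour on chromosome 4. The coding sequences of the 2 genes, 1524 bases each, differed at 23 bases (98.5% identity), the longest identical run was 342 bases, and 41.3% of all windows of 100 bases, the length of a read, held no difference. The 60 coding bases with the most differences are shown because reads over such stretches can tell the genes apart. The untranslated parts of the exons were not compared. They are coding bases 624 to 683, across exons 5 and 6, read on the plus strand at chr4:115326309-115326681 for Cyp4a12a and chr4:115432561-115432934 for Cyp4a12b (mm10), with the 4 differing bases in capitals.
Cyp4a12a: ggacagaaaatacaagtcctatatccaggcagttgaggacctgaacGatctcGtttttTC
Cyp4a12b: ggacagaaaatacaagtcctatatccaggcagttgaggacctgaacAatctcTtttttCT

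Cyp4a12a had the higher level of the pair and was also higher in unstimulated AhR-KO. It had 1.56 ± 0.323 CPM in WT and 8.26 ± 3.02 CPM in AhR-KO without stimulation (SD, n = 6), again without overlap (log2 fold change 2.41, SE 0.31, adjusted p = 1.6e-05). After LPS it had 0.530 ± 0.216 CPM in WT and 0.291 ± 0.112 CPM in AhR-KO (−0.87, SE 0.32, adjusted p = 0.0824). With the counts of both genes summed, the difference without stimulation was 2.68 (adjusted p = 5.1e-07) and the change with LPS −4.78 (adjusted p = 6.1e-12) in AhR-KO and −1.43 (adjusted p = 1.2e-04) in WT, so that the sum was called in WT where Cyp4a12b alone was not.

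**Figure D3:**
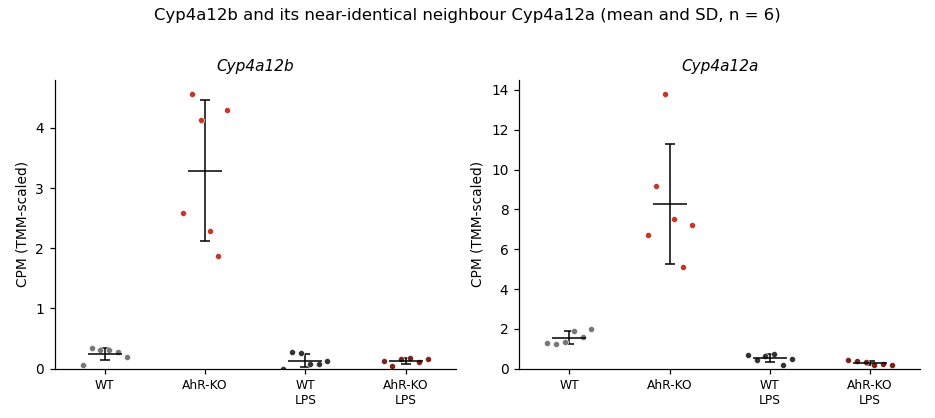
CPM of Cyp4a12b (left) and Cyp4a12a (right) in each library of the 4 groups, on linear axes from 0; points are libraries, and the line and bar are the mean and SD of 6 libraries. For both genes the unstimulated AhR-KO libraries (1.87 to 4.57 CPM and 5.12 to 13.8 CPM) lie above all other libraries.

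The inactivating enzymes were not called between the genotypes. Ptgr1, which reduces the double bond of prostaglandin metabolites and oxidises leukotriene B4 (ENSMUSG00000028378, chromosome 4, 58965439 to 58987119, minus strand), was abundant throughout. It had medians of 125 CPM in WT and 155 CPM in AhR-KO without stimulation and 124 and 110 CPM after LPS, and the groups overlapped in both states. The genotype differences were 0.33 (SE 0.28, adjusted p = 0.828) without stimulation and −0.38 (SE 0.28, adjusted p = 0.51) after LPS. The LPS changes were 0.09 in WT and −0.62 in AhR-KO (SE 0.28 each, adjusted p = 0.84 and 0.0759), the latter being −1.09 (adjusted p = 1.3e-04) with libraries scaled by their totals. WT replicates 33 (252 CPM) and 37 (276 CPM) and AhR-KO replicates 19 (299 CPM) and 39 (179 CPM) were the highest of their groups, and all but replicate 19 belong to the run of libraries 33 to 40. These 4 libraries also had the lowest slope of log2 CPM on log2 gene length in their groups (0.114, 0.199, 0.0952 and 0.181). With that slope as a covariate Ptgr1 was still not called between the genotypes or with LPS, but its interaction, which was −0.71 without the covariate (SE 0.39, adjusted p = 0.494), then passed the test (−0.79, adjusted p = 0.0285).

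Hpgd, the dehydrogenase that starts the breakdown of E and F prostaglandins (ENSMUSG00000031613, chromosome 8, 56294585 to 56321043, plus strand), was the gene of the set nearest to the limit of detection. Its lowest, median and highest values without stimulation were 0.110, 0.301 and 0.635 CPM in WT and 0.172, 0.248 and 0.906 CPM in AhR-KO, with a difference of 0.05 (SE 0.78, adjusted p = 1). After LPS it had 3 counts in WT, all of them in replicate 29, and 11 counts in AhR-KO, 10 of them in replicate 40. Per TMM-scaled library total, the counts of Hpgd were 33.1-fold lower after LPS in WT (95% exact counting interval 11.1 to 163), and the fitted change was called (−4.91, SE 1.07, adjusted p = 7.0e-04). It was called in AhR-KO as well (−3.16, SE 0.92, adjusted p = 0.00687). These fitted values moved to −7.30 without replicate 29 and −5.79 without replicate 40, and neither call was lost. The ratio of AhR-KO to WT after LPS was 4.05 by counts per TMM-scaled library total (interval 1.07 to 22.6, which covers counting error only and not the spread between libraries), with a fitted difference of 1.79 (SE 1.16, adjusted p = 0.423) that was −0.85 without replicate 40.

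The rest of these pathways was described by 70 further genes in 6 lists, of which 68 were matched and 28 had enough counts to be tested. Without stimulation 1 of the 28 was called higher and 4 lower in AhR-KO, beside 0.916% and 3.57% of all tested genes. After LPS again 1 was called higher and 4 lower, beside 2.17% and 6.19%, and the median log2 fold change was 0.08 in both states. With LPS 9 were called higher and 9 lower in WT, beside 13.2% and 11.8% of all tested genes, and 8 and 6 in AhR-KO, beside 15.1% and 15.7%. For the interaction 1 was called higher and 2 lower, beside 1.95% and 2.34%. Among the lipoxygenase genes, Alox5, which makes leukotrienes, was lower in AhR-KO without stimulation (−1.51, SE 0.38, adjusted p = 0.0151) and after LPS (−3.35, SE 0.42, adjusted p = 4.6e-06), while Alox5ap, its activating protein, was not called in either.

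Among 7 tested prostanoid synthases, Ptgs1 and Hpgds were called lower in AhR-KO in both states and Ptgs2, the inducible cyclooxygenase, higher after LPS. Ptgs1, the constitutive cyclooxygenase, changed by −2.66 without stimulation (SE 0.38, adjusted p = 5.1e-05) and by −4.03 after LPS (SE 0.41, adjusted p = 3.8e-07). Hpgds, the hematopoietic prostaglandin D synthase, changed by −5.20 (SE 0.53, adjusted p = 5.9e-07) and −3.53 (SE 0.50, adjusted p = 2.4e-05). Mast cells are known for Hpgds, and Gata2, a factor of mast cells and basophils, changed by −5.04 (adjusted p = 1.4e-04) and −5.18 (adjusted p = 5.9e-05), and the part of such cells in the Hpgds values was not tested. Ptgs2 had 560 ± 189 CPM in WT and 3152 ± 2232 CPM in AhR-KO after LPS (SD, n = 6; log2 fold change 2.49, SE 0.42, adjusted p = 2.1e-04). Among 5 tested Cyp4 genes, Cyp4a12a was called, and among 4 tested Cyp1 and Cyp2 genes Cyp1b1, a classical AhR target, was called lower without stimulation (−3.32, SE 0.74, adjusted p = 0.00528) and after LPS (−2.61, SE 0.71, adjusted p = 0.014). Lta4h, the leukotriene A4 hydrolase, was the tested gene of the epoxide hydrolase list and was not called between the genotypes in either state. LPS lowered it in WT (−1.75, SE 0.17, adjusted p = 1.2e-08) and in AhR-KO (−2.59, SE 0.17, adjusted p = 1.6e-11), and it was called for the interaction (−0.84, SE 0.23, adjusted p = 0.0361). None of 9 tested genes for prostaglandin and leukotriene inactivation and transport was called between the genotypes, with differences from −1.82 to 0.52 without stimulation and from −0.40 to 1.52 after LPS.

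**Figure D4:**
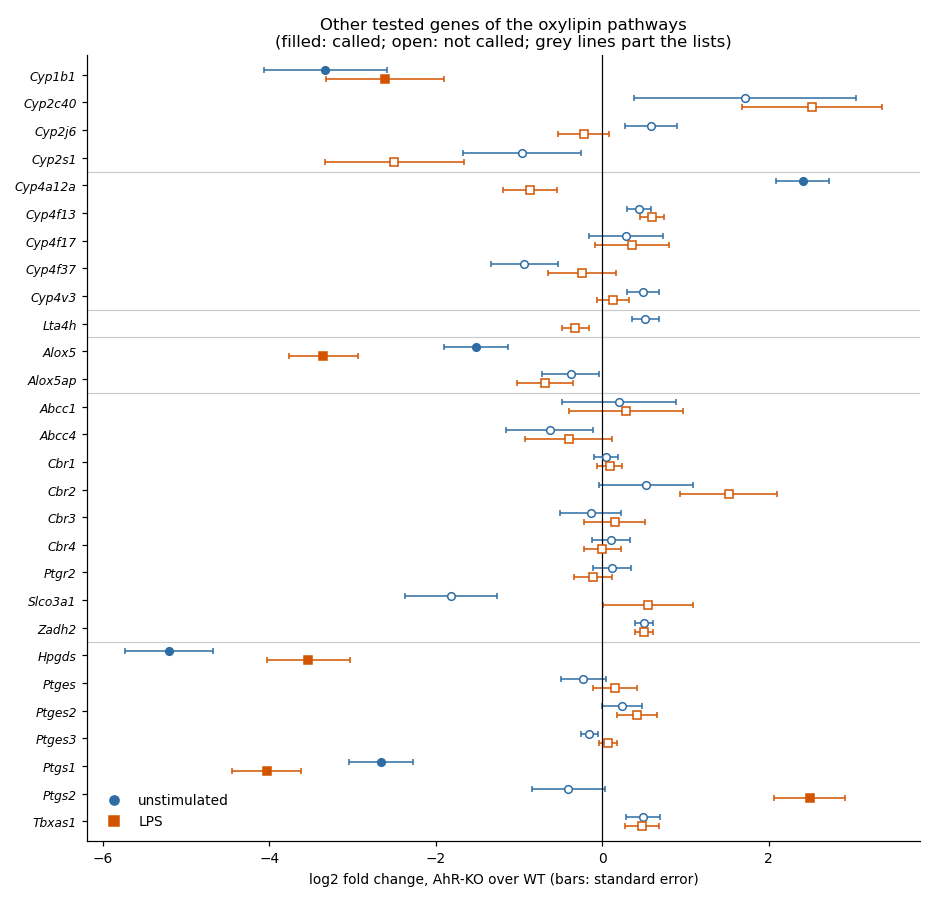
Log2 fold changes of AhR-KO over WT for the 28 other tested genes of the oxylipin pathways, circles without stimulation and squares after LPS, with standard errors as bars, filled symbols for called genes and grey lines between the lists. Alox5, Ptgs1, Hpgds and Cyp1b1 are called lower in both states, Cyp4a12a higher without stimulation and Ptgs2 higher after LPS.

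For the 6 genes called between the genotypes, the most similar profiles were sought among 12714 tested genes with a mean of at least 1 CPM, by the root mean square difference of centred log2(CPM + 0.5) over the 24 libraries. Closest to Alox12 were Sdc4 (0.35), Ifi203-ps (0.39) and Mlkl (0.42), against a root mean square of 1.55 for Alox12 itself. Ephx1 was closest to Smim5 (0.34), Gmpr (0.35) and Tpbgl (0.42), against 1.82 of its own, and among the genes closest to Cyp4f18 were Gm47507 (0.30) and Klra2 (0.39), against 1.01. The likeness was weaker for Cyp4a12b, with Ppbp (0.51), Acss2 (0.52) and Cyp4a12a (0.55) against 1.10, and for Ephx2, with Zfp280b (0.39), Tlcd1 (0.40) and Epm2aip1 (0.40) against 0.71. No gene came close to Ptgis, for which the nearest, Ptpn22 (0.63), Dpep2 (0.65) and Mogs (0.66), differed from it by almost as much as its own 0.81.

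Promoter windows of RefSeq on GRCm38.p6, from 250 bases before to 50 after a gene's start, were at hand for 6 of the 10 genes, Alox12, Ephx1, Cyp4f18, Cyp4f16, Ptgr1 and Hpgd. The core letters of the site bound by AhR and its partner ARNT, GCGTG on either strand, were in 2 of the 6 windows and in 32.4% of all 32851 windows. They were absent from the windows of Alox12, Ephx1 and Cyp4f18, which were called between the genotypes, and of Ptgr1, which was not, and present in those of Cyp4f16 and Hpgd, which were not called. The 30 bases around each match are shown with the core, here on the reverse strand, in capitals, at chr17:32536321-32536350 for Cyp4f16 and chr8:56294522-56294551 for Hpgd, both on the plus strand. The match starts 224 bases before the RefSeq start of Cyp4f16 and 14 bases before that of Hpgd, counted from the starts the windows were built on, which differ from the gene starts given above. Matches of these letters are a description and not a measure of binding.
Cyp4f16: tacttcctccttCACGCttttatcagcaga
Hpgd: tcctagggccgctgcaCACGCgcacggagt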

How the data were processed

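RNA sequencing was done on 24 libraries of BMDMs. The authors aligned read pairs of 100 bases to mm10 with GSNAP and counted fragments on Ensembl release 98 genes with featureCounts 2.0.1, strand-specifically, from a mapping quality of 1. The deposited values are these counts, without normalization. The 92 spike-in rows, with 1 count in all, were left out, no column was left unused, and symbols matched 55154 of 55421 identifiers. Depth was 45106052 to 76992663 counts per library. Ephx1 at 0.780 CPM in replicate 30 thus had 55 counts, and Alox12 at 0.0850 CPM in replicate 18 had 6. The biological coefficient of variation between libraries of a group, from edgeR's dispersion common to all tested genes, was 49.1%.

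All libraries entered 1 edgeR 4.0.16 fit (R 4.3.3, TMM, filterByExpr, robust quasi-likelihood test, a coefficient per group), with Benjamini-Hochberg adjustment over 16593 genes and the study's thresholds. Standard errors are the absolute fold change over the root of F. Interval bounds are exact binomial and cover counting error only. Python 3.11.15, pandas 2.3.3 and matplotlib 3.10.9 served for summaries. The alternatives were DESeq2 1.42.0 and limma-voom (limma 3.58.1), other scalings and filters, only the groups compared, run or length slope as covariates, no minimum fold change, summed paralogs and leaving out libraries. The fit was checked on simulated counts.

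The genes, lists and tests were chosen with earlier results of these data known. Values are given for all 10 genes, for Ahr, for listed genes called in a genotype comparison or the interaction, for Cyp4a12a, and for the 3 most similar profiles of each member called between the genotypes, apart from items that are not reported here. The labels pair no cultures, so libraries were treated as independent, and p-values measure the spread between libraries.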

Additional observations from a re-analysis of the deposited data

Results flagged for a closer look

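In 8 of 40 groups of 6 libraries, 1 library stood apart from the others by Dixon's criterion, where 2 would be flagged by chance among independent, normally spread values. These were Ptgis in unstimulated WT (replicate 34, 7.65 CPM), Ephx1 in AhR-KO after LPS (replicate 32, 0.343 CPM), and Ephx2 in unstimulated AhR-KO (replicate 19, 1.95 CPM). Ptgr1 stood apart in unstimulated WT (replicate 33, 252 CPM) and in AhR-KO after LPS (replicate 39, 179 CPM). Hpgd did so in unstimulated AhR-KO (replicate 19, 0.906 CPM), in WT after LPS (replicate 29, 0.0490 CPM) and in AhR-KO after LPS (replicate 40, 0.191 CPM). The last 2 rest on 3 and 10 counts, and Hpgd in WT after LPS had counts in 1 of 6 libraries. The 10 genes were measured in the same libraries, so that 8 flags against 2 are no test of an excess.

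The genotype difference changed between the unstimulated and the LPS-stimulated state, by the interaction test of edgeR, for 4 genes. On the log2 scale, the difference after LPS minus that without stimulation was −1.65 for Ephx1, −3.86 for Cyp4a12b, −3.23 for Ephx2 and 5.36 for Ptgis. For Ephx1, Cyp4a12b and Ptgis the genotype difference was called without stimulation and not after LPS, and for Ephx2 after LPS and not without stimulation.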

How the results depend on the processing

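Leaving out each library in turn gave 2 to 3 called genes between the genotypes without stimulation, 3 to 4 after LPS, 4 to 5 for LPS in WT, 6 in every case for LPS in AhR-KO and 4 to 5 for the interaction. With a mean of at least 1 CPM required, 2 genes were called for LPS in WT, since Ptgis and Hpgd were then not tested, and the slope on gene length as covariate gave 7 for the interaction, with Cyp4f18, Cyp4f16 and Ptgr1 (−0.79, adjusted p = 0.0285) in addition. The run as a factor gave 6 for the interaction, with Cyp4f18 and Cyp4f16 in addition, 4 after LPS, with Ptgis in addition, and changed no other call of the 10 genes. Values that passed no test changed sign. Without a library, Alox12 without stimulation ranged from −0.0685 to 1.48, Hpgd from −0.50 to 0.33 without stimulation, from −0.85 to 4.18 after LPS and from −0.90 to 4.13 for the interaction, Cyp4a12b after LPS from −0.376 to 0.20, Alox15 for the interaction from −0.0156 to 0.746, and for LPS in WT Cyp4f18 from −0.28 to 0.15 and Ptgr1 from −0.16 to 0.35. With total library size, Cyp4f16 after LPS was −0.0320, Hpgd without stimulation −0.0475 and Ptgr1 for LPS in WT −0.25. That scaling moved the median of all tested genes by −0.22 between the genotypes after LPS and by −0.34 and −0.48 for LPS in WT and AhR-KO. Cyp4a12b after LPS was 0.41 with limma-voom, the interaction of Alox15 −0.0186 with the run as a factor, and Cyp4f18 for LPS in WT 0.0226 with the length slope. The cause of these changes was not tested. Ptgis without stimulation lost its call with limma-voom (−1.80, adjusted p = 0.336) and with only the groups compared (−2.94, adjusted p = 0.103), and its interaction with limma-voom (4.69, adjusted p = 0.0566). Values as low as the 0.0850 CPM of Alox12 in replicate 18 rest on few counts, here 6. No paired analysis was possible because the groups share no replicate numbers and the labels tie no unstimulated culture to an LPS-stimulated one. The LPS and interaction tests treat all libraries as independent, although some measures recur 4 library numbers apart. The libraries without Y-linked counts were WT replicates 34 and 38, and the highest WT neutrophil sums were in 33 and 25 without stimulation and in 37 and 29 after LPS. Whether such libraries share an animal is not given in the sources used here.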
